A study of Mus musculus with 16 samples.

Results

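The genes described here are 39 cell cycle and proliferation genes, read in RNA-seq libraries of mouse microglia and astrocytes. They were taken by symbol from 1 count table per cell type, keeping the row with the highest sum where a symbol repeated. All 39 were found, among 55414 features in the microglia table and 56980 in the astrocyte table, and all 39 passed the filter on low counts in both. By role they are 10 regulators of G1 and of the entry into S phase, 10 genes of DNA replication, 18 genes of G2 and mitosis, and Stmn1. Each cell type had 4 groups of 2 libraries. AD CKO libraries came from an Alzheimer's disease (AD) model with a conditional knockout (CKO) of Rack1, AD WT libraries from that model with Rack1 intact, CKO libraries from the knockout without the model, and WT libraries from animals with neither. The study's design text places the knockout in microglia, so the astrocytes of CKO and AD CKO animals are not the targeted cells. The labels used here do not name the AD model, the Cre driver, the age of the animals or how the cells were isolated, and they do not say whether replicates came from separate animals. The p-values therefore measure only the spread between these libraries, which may be technical.

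A dividing cell passes from G1 into S phase, where DNA is copied, and through G2 into mitosis. D-type cyclins with Cdk4 and Cdk6 phosphorylate the retinoblastoma protein in G1, which frees E2F factors to switch on the genes of replication. The genes of G2 and mitosis are switched on later, in large part through the MuvB complex with B-Myb and FoxM1, and in resting cells the DREAM complex holds them down. In the adult brain microglia renew themselves by slow local division and are known to proliferate around amyloid deposits, whereas most mature astrocytes rest.

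Total expected counts were between 27741882 and 33933068 per microglia library and between 29615853 and 35851170 per astrocyte library. CPM here use the effective library size after TMM scaling. Fold changes are log2, given with their standard error, and a gene is called where the adjusted p of edgeR's quasi-likelihood test over all genes tested is under 0.05. Rack1, the targeted gene, had 47.2 and 47.8 CPM in AD CKO, 113 and 115 in AD WT, 40.4 and 41.96 in CKO and 98.1 and 95.2 in WT microglia. It was lower in the knockout groups, with log2 fold changes of -1.26 ± 0.06 in AD CKO against AD WT and -1.23 ± 0.06 in CKO against WT microglia, and did not reach 0. In astrocyte libraries Rack1 had 54.7 and 53.3 CPM in AD CKO, 76.6 and 72.9 in AD WT, 102 and 95.7 in CKO and 61.1 and 57.9 in WT. Summed markers of 14 microglia genes were 37996 to 61974 CPM in microglia libraries and 595 to 2289.7 CPM in astrocyte libraries. Summed markers of 12 astrocyte genes were 321 to 455 CPM in microglia and 10874 to 25128 CPM in astrocyte libraries. None of the markers of the 13 cell types listed was at 0 in every library of a cell type, and how much RNA of other cells the libraries hold was not tested. In bulk libraries a lower share of cycling cells and less RNA per cycling cell cannot be told apart.

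The WT libraries give the levels of the 39 genes without the model or the knockout. The genes of G2 and mitosis were higher in WT microglia than in WT astrocytes for 18 of 18, with a median log2 difference of 2.86. Of all 39 genes 31 were higher and 3 lower in WT microglia, where 79% of the 20589 genes tested in a joint fit were called, 39.5% higher and 39.4% lower. The tables of the cell types were deposited separately, so a difference in their making would enter these values. Levels below are CPM per kilobase of merged exon length, on 1 TMM scale over both tables. The highest levels in WT microglia were those of Cdk4, a G1 kinase, at 33.9 and 35.03, against 26.0 and 25.7 in WT astrocytes. Stmn1, which destabilises microtubules, followed at 32.4 and 29.1 in WT microglia, far below its 184 and 169 in WT astrocytes. The replication genes Mcm3, a subunit of the replicative helicase, and Pcna, the sliding clamp, stood next in WT microglia. Mcm3 was at 25.5 and 28.7 in WT microglia and 2.17 and 2.38 in WT astrocytes. Pcna was at 23.4 and 22.6 in WT microglia and 25.6 and 24.8 in WT astrocytes, a log2 difference of -0.13 ± 0.07, adjusted p = 0.0716. That value was not called, and it turned to 0.24 and was called when a term for transcript length was added. The lowest of the 39 in WT microglia was Cenpf, a kinetochore protein, at 0.278 and 0.226 in WT microglia and 0.0738 and 0.0514 in WT astrocytes. Neighbours in the order of levels often did not differ beyond their replicates, as with Mki67 (0.765 and 0.8398 in WT microglia) and Kif11 (0.774 and 0.787 in WT microglia).

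The differences between the cell types were large for single genes. Cdk6, the G1 kinase paired with D-type cyclins, was 4.33 and 4.22 in WT microglia against 0.167 and 0.137 CPM per kilobase in WT astrocytes, a log2 difference of 4.82 ± 0.12 (adjusted p = 1.95e-24). Cdk1, the kinase that drives mitosis, was 1.59 and 1.94 in WT microglia against 0.0562 and 0.0776 in WT astrocytes, a difference of 4.69 ± 0.26 (adjusted p = 6.02e-16). Cyclin D1 (Ccnd1) was 6.38 and 7.87 against 0.745 and 0.505 in WT astrocytes, a difference of 3.52 ± 0.18 (adjusted p = 2.45e-14). The D-type cyclins divided between the libraries of the 2 cell types, since Ccnd2 ran the other way. It was 1.33 and 1.35 in WT microglia and 8.29 and 8.298 in WT astrocytes, a difference of -2.63 ± 0.09 (adjusted p = 1.67e-20). The other genes lower in WT microglia were Stmn1 (-2.52 ± 0.07) and the CDK inhibitor p27 (Cdkn1b, -0.91 ± 0.17). In WT astrocyte libraries markers summed to 721 to 746 CPM for oligodendrocyte precursors, 243 to 245 for neuroblasts and 14595 to 14756 for oligodendrocytes. In WT microglia they summed to 19.5 to 22.6, 52.8 to 52.9 and 3152 to 3294 CPM. Neutrophil markers went the other way (52.8 to 56.1 against 238 to 257 CPM). The part of such cells' RNA in these differences was not tested. The 5 genes not called were Pcna, Rrm2, Mcm4, Ccne1 and E2f1, with differences of -0.13 to 0.35. Ccne2 was no longer called without Microglia WT replicate 1 (0.53, against 0.72 with all libraries). Cdk4 (0.69) and Rrm1 (0.26) kept their calls but moved by more than 1.5 times with the transcript length offset. Of the 90 other cell cycle genes tested, 60 were higher and 18 lower in WT microglia, among them 27 higher and 2 lower of 32 further mitosis genes. Of all genes tested in the joint fit 79% were called, 39.5% higher and 39.4% lower.

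**Figure D1:**
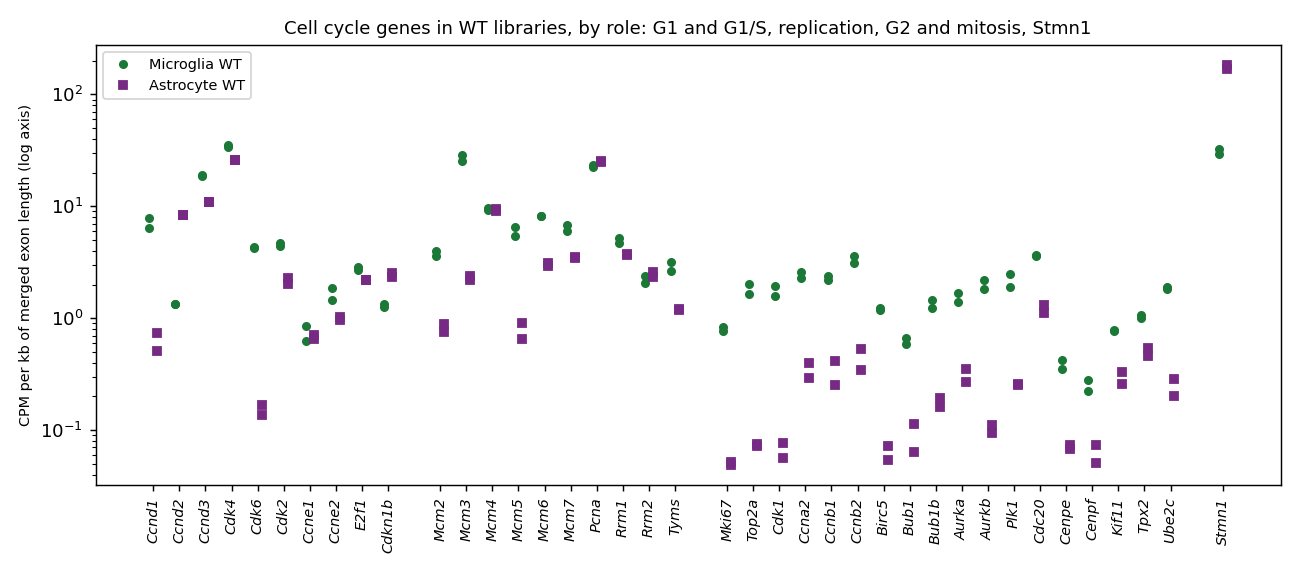
Level of each of the 39 genes in the 2 WT microglia libraries (circles) and the 2 WT astrocyte libraries (squares), in CPM per kilobase of merged exon length on a log axis, with genes ordered by role. The 18 G2 and mitosis genes lie higher in microglia in every library pair, while Ccnd2, Cdkn1b and Stmn1 lie higher in astrocytes.

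In microglia the genes of G2 and mitosis were highest in the AD model with intact Rack1. Of the 18 genes, 14 rose and 0 fell in AD WT against WT microglia, with a median of 0.69. The knockout within the model went with lower values, as 10 fell and 0 rose in AD CKO against AD WT microglia, with a median of -0.44. All 18 log2 fold changes were positive in the first comparison and negative in the other, but both use the AD WT libraries, so they are not independent. Over all 39 genes the counts were 19 higher and 0 lower in AD WT against WT, where 19.3% of the 17318 genes tested were called (10.7% higher and 8.62% lower), and 6 higher and 13 lower in AD CKO against AD WT, where 32% were called (17% higher and 15% lower). The medians of all genes tested were -0.02 and 0.00. Summed over the 18 genes, the level was 115 and 121 CPM in AD CKO, 162 and 161 in AD WT, 127 and 113 in CKO and 100.9 and 98.9 in WT microglia. The AD WT libraries stood above all others, and the AD CKO and CKO libraries overlapped each other above WT. By group mean, AD WT was highest of the 4 groups for 16 of the 18 genes and CKO for the other 2, and WT was lowest for 15.

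**Figure D2:**
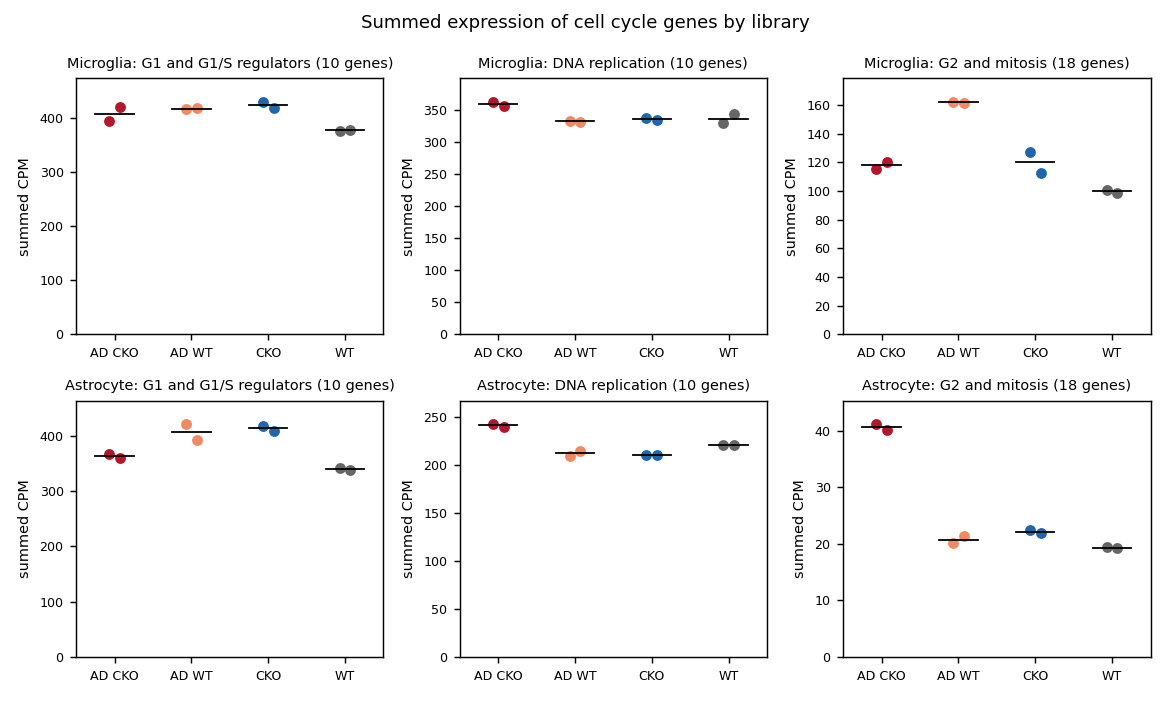
Summed CPM of the 10 G1 and G1/S regulators, the 10 replication genes and the 18 G2 and mitosis genes in each library, with microglia above and astrocytes below. Points are libraries and bars group means. The G2 and mitosis sum peaks in AD WT among microglia (162.2 and 161.4 CPM) and in AD CKO among astrocytes (41.2 and 40.04 CPM).

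To show what these genes share in sequence, the promoters of 4 that were called in both comparisons and in the test of the difference between backgrounds, described further on, are printed with that of 1 replication gene. Each window runs from 250 bases before to 50 bases after the start site, 5′ to 3′ on the gene's strand, from RefSeq on GRCm38.p6. Capitals mark matches on either strand to 3 motifs. These were the cell cycle genes homology region (CHR, TTTGAA or TTTAAA), through which MuvB binds, the CCAAT box bound by NF-Y, and the E2F site (TTTCGCGC, TTTGGCGC or TTTCCCGC). Matches can overlap, as 2 E2F matches on opposite strands do in Mcm6.
Plk1 chr7:122159185-122159484 plus strand: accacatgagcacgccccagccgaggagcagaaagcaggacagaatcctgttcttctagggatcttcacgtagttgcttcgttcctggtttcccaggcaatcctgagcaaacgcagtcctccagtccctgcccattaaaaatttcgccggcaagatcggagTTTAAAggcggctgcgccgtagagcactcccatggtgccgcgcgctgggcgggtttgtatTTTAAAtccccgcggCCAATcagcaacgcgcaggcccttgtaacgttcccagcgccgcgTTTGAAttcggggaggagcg
Cdk1 chr10:69352863-69353162 minus strand: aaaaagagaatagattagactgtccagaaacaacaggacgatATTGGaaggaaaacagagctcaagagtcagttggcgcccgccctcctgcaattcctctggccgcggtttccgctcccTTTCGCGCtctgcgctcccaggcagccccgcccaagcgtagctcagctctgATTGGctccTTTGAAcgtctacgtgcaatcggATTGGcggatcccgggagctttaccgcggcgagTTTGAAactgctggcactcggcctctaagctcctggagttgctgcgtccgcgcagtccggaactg
Ccnb2 chr9:70421505-70421804 minus strand: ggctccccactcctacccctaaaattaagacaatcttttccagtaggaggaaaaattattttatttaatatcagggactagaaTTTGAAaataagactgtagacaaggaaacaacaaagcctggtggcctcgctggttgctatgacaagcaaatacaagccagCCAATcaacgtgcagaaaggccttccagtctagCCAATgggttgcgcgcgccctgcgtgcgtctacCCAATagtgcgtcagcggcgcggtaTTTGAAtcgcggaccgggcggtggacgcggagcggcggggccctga
Cenpf chr1:189688037-189688336 minus strand: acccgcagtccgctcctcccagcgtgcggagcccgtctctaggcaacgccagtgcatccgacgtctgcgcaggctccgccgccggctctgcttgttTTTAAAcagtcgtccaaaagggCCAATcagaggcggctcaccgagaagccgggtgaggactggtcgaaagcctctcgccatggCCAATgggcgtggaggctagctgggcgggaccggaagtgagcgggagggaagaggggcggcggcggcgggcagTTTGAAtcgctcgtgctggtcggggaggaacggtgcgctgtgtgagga
Mcm6 chr1:128359656-128359955 minus strand: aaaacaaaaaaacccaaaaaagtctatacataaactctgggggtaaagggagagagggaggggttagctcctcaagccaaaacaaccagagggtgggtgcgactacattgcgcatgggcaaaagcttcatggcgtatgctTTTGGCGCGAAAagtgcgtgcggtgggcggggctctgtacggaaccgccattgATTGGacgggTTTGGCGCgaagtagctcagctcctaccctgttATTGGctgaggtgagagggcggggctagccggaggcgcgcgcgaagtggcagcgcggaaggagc

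A RefSeq promoter was at hand for 31 of the 39 genes. Both a CHR match and a CCAAT match stood in 13 of 15 G2 and mitosis promoters, against 10.7% of all 32851 promoters of the same length. A CHR match, with or without the other, was in 14 of the 15, against 27.6% of all, and a CCAAT match in 14, against 37.4%. The E2F letters were in 1 of the 15, that of Cdk1, against 1.84% of all. Replication genes had an E2F match in 4 of 9 promoters (Mcm3, Mcm5, Mcm6 and Mcm7), a CHR match in 3 and a CCAAT match in 8. Of 7 promoters of G1 and G1/S regulators, 2 had a CHR match, 3 a CCAAT match and 1 an E2F match. A match is only a match of letters in this window. The first base of the CHR match nearest the start site lay at -29 in Plk1, -15 in Cdk1, 5 in Ccnb2 and 3 in Cenpf, counted in bases from the start site, and Mcm6 had none. On mm10 the genes themselves are Plk1 (ENSMUSG00000030867, chr7:122159439-122169873, plus strand), Cdk1 (ENSMUSG00000019942, chr10:69335146-69352938, minus strand), Ccnb2 (ENSMUSG00000032218, chr9:70407692-70421547, minus strand), Cenpf (ENSMUSG00000026605, chr1:189640606-189688086, minus strand) and Mcm6 (ENSMUSG00000026355, chr1:128331590-128359664, minus strand), all protein coding.

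The engine of mitotic entry is Cdk1 with its cyclins. Cdk1, the mitotic kinase, had 10.5 and 11.99 CPM in AD CKO, 14.95 and 16.5 in AD WT, 8.27 and 10.5 in CKO and 6.83 and 8.32 in WT microglia. Ccna2, cyclin A2, which serves in S phase and G2, had 10.8 and 12.1 CPM in AD CKO, 15.8 and 15.1 in AD WT, 12.9 and 11.1 in CKO and 9.18 and 8.19 in WT. For both genes the AD WT libraries lay above every other library. Ccnb1, the main mitotic cyclin, had 8.83 and 8.63 CPM in AD CKO, 13.97 and 9.86 in AD WT, 7.79 and 6.45 in CKO and 8.73 and 8.06 in WT. Ccnb2, a related B-type cyclin, had 4.65 and 4.45 CPM in AD CKO, 7.29 and 7.802 in AD WT, 5.55 and 5.06 in CKO and 4.8 and 4.16 in WT. The AD WT libraries were again the highest for both, but for Ccnb1 they differed from each other by more than AD CKO differed from WT. Against WT, the AD WT level was higher by 1.05 ± 0.15 (adjusted p = 5.69e-06) for Cdk1, by 0.83 ± 0.14 (adjusted p = 4.29e-05) for Ccna2, by 0.75 ± 0.19 (adjusted p = 0.00407) for Ccnb2 and by 0.51 ± 0.16 (adjusted p = 0.0294) for Ccnb1. Against AD WT, the AD CKO level differed by -0.73 ± 0.19 (adjusted p = 0.00318) for Ccnb2, -0.48 ± 0.15 (adjusted p = 0.012) for Cdk1, -0.45 ± 0.16 (adjusted p = 0.0365) for Ccnb1 and -0.43 ± 0.13 (adjusted p = 0.0144) for Ccna2.

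The kinases described next act on the centrosomes, the spindle and the chromosomes. Plk1, polo-like kinase 1, which acts in mitotic entry and spindle assembly, had 3.83 and 4.66 CPM in AD CKO, 8.04 and 7.25 in AD WT, 4.51 and 3.98 in CKO and 3.61 and 4.72 in WT. Only the AD WT libraries stood apart, and AD CKO, CKO and WT overlapped. Plk1 rose by 0.88 ± 0.20 (adjusted p = 0.00211) in AD WT against WT and fell by 0.84 ± 0.20 (adjusted p = 0.00176) in AD CKO against AD WT. The Aurora kinases were called in none of the 5 microglia comparisons. Aurka, of the centrosome, ran from 3.07 to 4.51 CPM over the 8 libraries, and Aurkb, of the chromosomal passenger complex, from 4.64 to 7.596 CPM. Birc5, survivin, a subunit of that complex, had 4.52 and 4.48 CPM in AD CKO, 6.03 and 7.18 in AD WT, 4.74 and 4.01 in CKO and 3.64 and 3.53 in WT. Its AD WT libraries were the highest, by 0.88 ± 0.20 (adjusted p = 0.00217) over WT, and AD CKO differed from AD WT by -0.55 ± 0.20 (adjusted p = 0.0347).

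Kif11, the motor that pushes the spindle poles apart, had 5.75 and 5.21 CPM in AD CKO, 9.299 and 6.87 in AD WT, 6.04 and 4.15 in CKO and 5.03 and 5.12 in WT microglia. Tpx2, a spindle assembly factor that activates Aurora A, had 4.72 and 5.54 CPM in AD CKO, 7.32 and 5.67 in AD WT, 6.88 and 6.49 in CKO and 4.06 and 4.36 in WT. The AD WT libraries were highest for Kif11, while for Tpx2 the AD WT and CKO libraries overlapped. Cenpe, a kinetochore motor, had 3.83 and 2.91 CPM in AD CKO, 4.43 and 5.47 in AD WT, 3.44 and 3.66 in CKO and 2.64 and 3.17 in WT. Cenpf, a kinetochore protein that builds up in G2, had 3.22 and 4.39 CPM in AD CKO, 6.98 and 6.05 in AD WT, 4.54 and 3.801 in CKO and 3.74 and 3.04 in WT. The AD WT libraries stood above all others for both. AD WT exceeded WT by 0.94 ± 0.22 (adjusted p = 0.00248) for Cenpf, 0.77 ± 0.24 (adjusted p = 0.023) for Cenpe, 0.67 ± 0.20 (adjusted p = 0.0163) for Kif11 and 0.63 ± 0.19 (adjusted p = 0.0214) for Tpx2. In AD CKO against AD WT, Cenpf (-0.77 ± 0.22, adjusted p = 0.00748) and Kif11 (-0.56 ± 0.20, adjusted p = 0.0304) fell, whereas Cenpe (-0.56 ± 0.24, adjusted p = 0.0752) and Tpx2 (-0.34 ± 0.19, adjusted p = 0.188) did not pass.

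Bub1b, the spindle checkpoint protein BubR1, had 5.07 and 7.08 CPM in AD CKO, 7.596 and 8.83 in AD WT, 6.36 and 5.09 in CKO and 5.41 and 4.62 in WT microglia. Cdc20, the activator of the anaphase-promoting complex, had 8.08 and 6.39 CPM in AD CKO, 7.56 and 8.66 in AD WT, 9.41 and 7.78 in CKO and 5.93 and 5.91 in WT. Ube2c, the ubiquitin-conjugating enzyme of that complex, had 3.59 and 4.18 CPM in AD CKO, 7.15 and 6.02 in AD WT, 3.83 and 3.94 in CKO and 4.09 and 4.29 in WT. AD WT libraries were highest for Bub1b and Ube2c, and for Cdc20 the CKO libraries reached as high. Bub1, the checkpoint kinase, ran from 2.03 to 3.95 CPM and was called in no microglia comparison. Top2a, the topoisomerase that untangles copied DNA, had 13.96 and 17.3 CPM in AD CKO, 20.2 and 22.0 in AD WT, 17.5 and 15.3 in CKO and 15.9 and 12.8 in WT. Mki67, Ki-67, the coat of mitotic chromosomes and a standard marker of proliferation, had 10.6 and 8.63 CPM in AD CKO, 11.99 and 13.3 in AD WT, 14.3 and 8.96 in CKO and 6.701 and 7.36 in WT. The CKO libraries of Mki67 differed by more than any other pair of its replicates, and 1 of them was the highest of all 8. Against WT, AD WT was higher by 0.85 ± 0.18 (adjusted p = 0.00191) for Mki67, 0.71 ± 0.19 (adjusted p = 0.00885) for Bub1b, 0.65 ± 0.20 (adjusted p = 0.0226) for Ube2c and 0.56 ± 0.13 (adjusted p = 0.00215) for Top2a, and Cdc20 did not pass (0.45 ± 0.17, adjusted p = 0.0683). For AD CKO against AD WT, Ube2c (-0.76 ± 0.20, adjusted p = 0.00497) and Top2a (-0.43 ± 0.13, adjusted p = 0.0101) fell.

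How many of the 18 passed depended on single libraries. With 1 library left out, its group holds 1, whose spread is taken from the other groups. Values in brackets are log2 fold changes in those smaller fits. In AD WT against WT, 7 genes passed without WT replicate 2 and 8 without WT replicate 1. For the 39 genes that count was 11 without WT replicate 2 and 12 without AD WT replicate 2. Ccnb1 (0.23), Kif11 (0.44), Tpx2 (0.43) and Ube2c (0.52) lost their calls without AD WT replicate 1, and Birc5 (0.75), Bub1b (0.60), Ccnb2 (0.70) and Cenpe (0.61) without AD WT replicate 2. Ccnb1 (0.56), Cenpe (0.64), Kif11 (0.66), Plk1 (0.69), Tpx2 (0.58) and Ube2c (0.62) were no longer called without WT replicate 1. Bub1b (0.60), Ccnb1 (0.45), Ccnb2 (0.65), Kif11 (0.69), Top2a (0.41), Tpx2 (0.68) and Ube2c (0.69) lost their calls without WT replicate 2, and Ccnb1 (0.51) with DESeq2. When AD CKO was set against AD WT, 2 of the 18 passed without AD CKO replicate 1, 5 without AD WT replicate 1 and 6 without AD WT replicate 2. Over the 39 it was 8 without AD CKO replicate 1 and 11 without AD WT replicate 1. Birc5 (-0.58), Ccna2 (-0.37), Ccnb1 (-0.48), Cdk1 (-0.41), Cenpf (-0.59), Kif11 (-0.65), Top2a (-0.30) and Ube2c (-0.67) were no longer called without AD CKO replicate 1. Birc5 (-0.55), Ccnb1 (-0.43) and Kif11 (-0.49) lost their calls without AD CKO replicate 2, and Ccna2 (-0.39), Ccnb1 (-0.18), Cenpf (-0.66), Kif11 (-0.33) and Ube2c (-0.63) without AD WT replicate 1. Birc5 (-0.42), Ccna2 (-0.46), Cdk1 (-0.41) and Top2a (-0.37) lost their calls without AD WT replicate 2, and Birc5 (-0.57), Ccnb1 (-0.46) and Kif11 (-0.57) with DESeq2. Ccnb1 (-0.68) kept its call but moved by more than 1.5 times without AD WT replicate 2. Cdk1, Ccna2, Cenpf and Mki67 in the first comparison, and Plk1 and Ccnb2 in the other, were called in every alternative run.

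**Figure D3:**
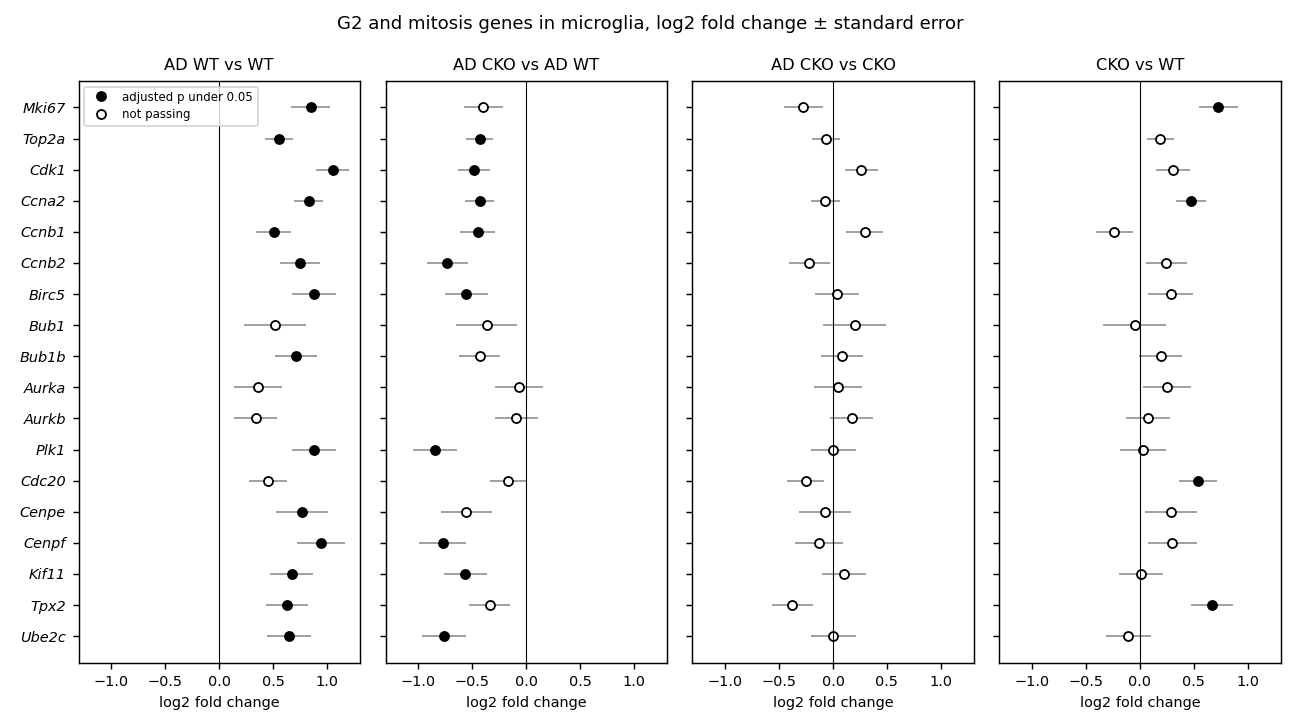
Log2 fold change ± standard error of the 18 G2 and mitosis genes in 4 comparisons of microglia groups (n = 2 libraries each). Filled points have an adjusted p under 0.05 by edgeR. All 18 points lie right of 0 in AD WT against WT and left of 0 in AD CKO against AD WT, and none is filled in AD CKO against CKO.

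Markers of blood vessel cells and neutrophils were higher and lower in the same comparisons of these microglia libraries. Summed over 9 endothelial markers the level was 555 CPM in AD CKO, 802 to 807 CPM in AD WT, 507 to 520.0 CPM in CKO and 458 to 459.8 CPM in WT, with 9 of 9 higher in AD WT against WT and 7 of 9 lower in AD CKO against AD WT. Summed over 8 mural markers it was 200.5 to 201 CPM in AD CKO, 285 to 297 CPM in AD WT, 210.0 to 210.4 CPM in CKO and 188 to 192 CPM in WT, with 8 of 8 higher in AD WT against WT and 6 of 8 lower in AD CKO against AD WT. Summed over 8 neutrophil markers it was 279 to 299.9 CPM in AD CKO, 454 to 458 CPM in AD WT, 640.2 to 644 CPM in CKO and 238 to 257 CPM in WT, with 8 higher in AD WT against WT and 7 lower in AD CKO against AD WT. The neutrophil sum was highest in CKO, and the endothelial and mural sums were highest in AD WT. Astrocyte markers were lower for 10 of 12 and oligodendrocyte markers for 9 of 10 in AD CKO against AD WT. The part of RNA from such cells in the G2 and mitosis result was not tested.

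Between the knockout groups none of these genes was called. In microglia, AD CKO against CKO, 0 of 18 G2 and mitosis genes rose and 0 fell by edgeR's test, with a median of 0.00 and values from -0.38 to 0.29. Over all 39 genes 1 rose and 2 fell, where 14.7% of all genes tested were called (7.73% higher and 6.92% lower). At an unadjusted p under 0.05, 0 of the 18 differed. DESeq2 called 0 and limma-voom 0. Without CKO replicate 2 the count was 1. Without the model some of these genes were higher in the knockout. In CKO against WT microglia 4 rose and 0 fell, with a median of 0.25, and over the 39 genes 9 rose and 2 fell, where 33.6% of all genes were called (17.7% higher and 15.9% lower). That 33.6% was a larger share than was called of the 18 or of the 39. The 4 were Mki67 (0.73 ± 0.18, adjusted p = 0.00388), Tpx2 (0.67 ± 0.19, adjusted p = 0.00812), Cdc20 (0.54 ± 0.17, adjusted p = 0.0164) and Ccna2 (0.47 ± 0.14, adjusted p = 0.00908). Ccna2 (0.33), Cdc20 (0.36), Mki67 (0.32) and Tpx2 (0.59) lost their calls without CKO replicate 1, and Cdc20 (0.54) and Tpx2 (0.61) without WT replicate 1. Ccna2 (0.39) and Cdc20 (0.54) were no longer called without WT replicate 2. Accordingly 0 of the 18 passed without CKO replicate 1, 2 without WT replicate 1 and 2 without WT replicate 2. Without CKO replicate 1, 6 of the 39 passed. Neutrophil markers were higher in CKO against WT for 8 of 8. The ratio of mean sums, CKO over WT, was 2.62 for oligodendrocyte, 2.6 for neutrophil, 2.42 for lymphocyte and 2.36 for neuron markers. It was 2.01 for oligodendrocyte precursor and 1.77 for border macrophage markers. Microglia (0.639), erythroid (0.512), neuroblast (0.478), and ependymal and choroid markers (0.436) went the other way. For AD CKO over CKO the ratio was 0.272 for oligodendrocyte and 1.11 for microglia markers. The part of such cells' RNA here was not tested.

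The effect of the knockout on these genes differed between backgrounds. The difference, AD CKO minus AD WT less CKO minus WT, was tested as an interaction. It was negative for all 18 G2 and mitosis genes and called for 8, with a median of -0.75. Over the 39 genes 2 were called positive and 11 negative, where 12.7% of all genes were called (5.53% positive and 7.19% negative). It was largest for Mki67 (-1.12 ± 0.26, adjusted p = 0.00517), Cenpf (-1.07 ± 0.32, adjusted p = 0.0234) and Tpx2 (-1.01 ± 0.27, adjusted p = 0.013), followed by Ccnb2 (-0.97 ± 0.27, adjusted p = 0.0142), Ccna2 (-0.90 ± 0.19, adjusted p = 0.00171) and Plk1 (-0.87 ± 0.29, adjusted p = 0.0467). Cdk1 (-0.79 ± 0.21, adjusted p = 0.013) and Top2a (-0.62 ± 0.18, adjusted p = 0.0231) completed the 8. Left-out libraries reduced the count to 4 without AD CKO replicate 1, without AD WT replicate 2 and without CKO replicate 1, and to 5 without AD WT replicate 1 and without WT replicate 2. Over the 39 it was 7 without AD WT replicate 2, and 8 without AD CKO replicate 1, without AD WT replicate 1 and without CKO replicate 1. Cdk1 (-0.69), Cenpf (-0.86), Top2a (-0.47) and Tpx2 (-0.89) lost their calls without AD CKO replicate 1, and Cenpf (-0.97) and Tpx2 (-0.81) without AD WT replicate 1. Ccnb2 (-0.92), Cdk1 (-0.72) and Top2a (-0.56) lost their calls without AD WT replicate 2, and Ccnb2 (-0.89), Cenpf (-0.93) and Top2a (-0.51) without CKO replicate 1. Cdk1 (-0.61) lost its call without CKO replicate 2, and Cdk1 (-0.65) without WT replicate 1. Ccnb2 (-0.87), Cenpf (-0.93) and Top2a (-0.47) were no longer called without WT replicate 2. Plk1 kept its call in 7 of 15 alternatives, with log2 fold changes between -1.08 and -0.69. Mki67 (-0.73) kept its call but moved by more than 1.5 times without CKO replicate 1. Ccna2 and Mki67 were called in every alternative. The endothelial markers were called negative for 9 of 9 in this same test, and their part was not tested.

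Among G1 regulators, cyclins D1 and D2 were higher in the knockout groups. Ccnd1, cyclin D1, had 36.8 and 34.5 CPM in AD CKO, 26.8 and 23.1 in AD WT, 37.4 and 34.2 in CKO and 26.2 and 32.3 in WT microglia. Ccnd2, cyclin D2, had 22.1 and 24.2 CPM in AD CKO, 13.8 and 18.3 in AD WT, 28.9 and 27.4 in CKO and 10.9 and 11.1 in WT. Ccnd3, cyclin D3, the most abundant of the 3 by CPM, had 146 and 157 CPM in AD CKO, 164 and 165 in AD WT, 176 and 173 in CKO and 146 and 142 in WT. Ccnd1 and Ccnd2 were higher in both knockout groups than in the group of the same background with Rack1 intact. Ccnd2 rose by 1.36 ± 0.12 (adjusted p = 5.19e-10) in CKO against WT and by 0.53 ± 0.12 (adjusted p = 0.000879) in AD CKO against AD WT. Ccnd1 rose by 0.51 ± 0.10 (adjusted p = 0.000277) in AD CKO against AD WT and by 0.29 ± 0.10 (adjusted p = 0.0243) in CKO against WT. Ccnd3 rose by 0.28 ± 0.05 (adjusted p = 6.42e-05) in CKO against WT and in AD CKO against AD WT differed by -0.12 ± 0.05, adjusted p = 0.0776, which did not pass. The interaction was called for Ccnd2 (-0.83 ± 0.17, adjusted p = 0.00105) and Ccnd3 (-0.39 ± 0.07, adjusted p = 0.000248). For AD WT against WT, Ccnd2 (0.54 ± 0.12, adjusted p = 0.00194) and Ccnd3 (0.19 ± 0.05, adjusted p = 0.00589) rose. Ccnd3 fell in AD CKO against CKO (-0.20 ± 0.05, adjusted p = 0.00564). Taking AD CKO against AD WT, Ccnd2 (0.34) was no longer called without AD WT replicate 1. When AD WT was set against WT, Ccnd2 (0.33) and Ccnd3 (0.19) were no longer called without AD WT replicate 2. In CKO against WT, Ccnd1 (0.20) lost its call without CKO replicate 1, and Ccnd1 (0.15) without WT replicate 1. Ccnd1 (0.27) was no longer called with DESeq2. Ccnd1 (0.46) kept its call but moved by more than 1.5 times without WT replicate 2. In AD CKO against CKO, Ccnd3 (-0.13) lost its call without AD CKO replicate 1, and Ccnd3 (-0.16) without CKO replicate 1. Markers of border macrophages and of microglia also differed with the knockout. Summed over 9 markers of border macrophages and monocytes the level was 304 to 309.8 CPM in AD CKO, 197 CPM in AD WT, 418 to 422 CPM in CKO and 235 to 239.8 CPM in WT, with 4 higher and 0 lower in AD CKO against AD WT, and 5 higher and 0 lower in CKO against WT. Summed over 14 microglia markers it was 41867 to 43832 CPM in AD CKO, 55438 to 55788 CPM in AD WT, 37996 to 39352 CPM in CKO and 59158 to 61974 CPM in WT, with 3 higher and 6 lower in AD CKO against AD WT, and 2 higher and 11 lower in CKO against WT. Oligodendrocyte and other marker sums also differed in CKO against WT, as given above. The part of all these markers' cells in the knockout values of the G1 regulators was not tested.

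Cdk4, a kinase partner of the D-type cyclins, had 84.9 and 91.2 CPM in AD CKO, 102 and 99.8 in AD WT, 82.2 and 80.3 in CKO and 95.8 and 99.2 in WT microglia. Cdk6, the other kinase partner, had 61.6 and 67.1 CPM in AD CKO, 63.8 and 69.5 in AD WT, 60.7 and 62.3 in CKO and 52.8 and 51.4 in WT. E2f1, the E2F factor that drives S phase genes, had 8.49 and 11.02 CPM in AD CKO, 11.5 and 9.97 in AD WT, 7.14 and 9.83 in CKO and 7.47 and 7.93 in WT. Cdk4 was lower in the knockout groups, with fold changes of -0.20 ± 0.06 (adjusted p = 0.00944) in AD CKO against AD WT and -0.26 ± 0.06 (adjusted p = 0.00069) in CKO against WT. Cdk6 was lowest in WT, and rose by 0.36 ± 0.07 (adjusted p = 0.000345) in AD WT and 0.24 ± 0.07 (adjusted p = 0.00836) in CKO. E2f1 rose by 0.48 ± 0.17 (adjusted p = 0.0474) in AD WT against WT. For AD CKO against AD WT, Cdk4 (-0.16) lost its call without AD CKO replicate 1, and Cdk4 (-0.18) without AD WT replicate 1. For CKO against WT, Cdk6 (0.22) was no longer called without CKO replicate 2. Taking AD WT against WT, E2f1 (0.37) lost its call without AD WT replicate 1, and E2f1 (0.58) without AD WT replicate 2. E2f1 (0.44) lost its call without WT replicate 1, and E2f1 (0.52) without WT replicate 2. E2f1 (0.48) was no longer called with DESeq2. Cdk2, Ccne1 and Ccne2 (the kinase and cyclins of S phase entry) and Cdkn1b were called in no microglia comparison. Cdk2 ran from 22.7 to 26.1 CPM, Ccne1 from 1.302 to 2.499, Ccne2 from 3.87 to 5.64 and Cdkn1b from 3.35 to 5.45 CPM.

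Of the replication genes in microglia, none was called for the model alone. In AD WT against WT 0 of 10 rose and 0 fell by edgeR's test (median -0.02), with 5 at an unadjusted p under 0.05, 0 called by DESeq2 and 0 by limma-voom. When AD CKO was set against AD WT, 4 rose and 1 fell. Of all genes tested, 19.3% were called in AD WT against WT and 32% in AD CKO against AD WT. Pcna, the sliding clamp of the replication fork, had 70.1 and 71.7 CPM in AD CKO, 52.7 and 56.9 in AD WT, 62.2 and 64.03 in CKO and 48.97 and 47.3 in WT. Mcm6, a helicase subunit, had 43.2 and 37.99 CPM in AD CKO, 31.8 and 31.7 in AD WT, 31.7 and 32.3 in CKO and 33.3 and 33.5 in WT. Mcm7, another helicase subunit, had 16.9 and 16.8 CPM in AD CKO, 25.1 and 22.2 in AD WT, 15.2 and 19.04 in CKO and 23.1 and 26.4 in WT. Pcna was higher and Mcm7 lower in both knockout groups than with Rack1 intact, and Mcm6 was highest in AD CKO. Pcna rose by 0.37 ± 0.07 (adjusted p = 8.07e-05) in AD CKO against AD WT and by 0.39 ± 0.07 (adjusted p = 3.88e-05) in CKO against WT. Mcm7 fell by 0.49 ± 0.12 (adjusted p = 0.00147) in AD CKO against AD WT and by 0.54 ± 0.11 (adjusted p = 0.000502) in CKO against WT. Those 4 calls stood in every alternative run. The sums of border macrophage, microglia, oligodendrocyte and other markers given above differed between the same groups. Their part in the Pcna and Mcm7 values was not tested. Mcm6 rose by 0.35 ± 0.08 (adjusted p = 0.0018) against AD WT and by 0.34 ± 0.08 (adjusted p = 0.00511) against CKO, with an interaction of 0.41 ± 0.12, adjusted p = 0.021.

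Mcm3, a helicase subunit, had 92.9 and 90.6 CPM in AD CKO, 80.8 and 78.6 in AD WT, 86.6 and 84.96 in CKO and 83.1 and 93.7 in WT microglia. Mcm4, another, had 29.6 and 33.9 CPM in AD CKO, 24.2 and 25.5 in AD WT, 29.2 and 27.2 in CKO and 28.96 and 30.3 in WT. Both were higher in AD CKO than in AD WT, by 0.20 ± 0.06 (adjusted p = 0.0125) for Mcm3 and 0.36 ± 0.09 (adjusted p = 0.004) for Mcm4, and the interaction was called for Mcm4 (0.42 ± 0.13, adjusted p = 0.0317). The other 5 replication genes were called in no microglia comparison. Mcm2 and Mcm5 (helicase), Rrm1 and Rrm2 (ribonucleotide reductase) and Tyms (thymidylate synthase) had AD CKO against AD WT differences of -0.28 to -0.04 and AD WT against WT differences of -0.11 to 0.41. For the replication genes in AD CKO against AD WT, Mcm3 (0.17) and Mcm6 (0.24) lost their calls without AD CKO replicate 1, and Mcm4 (0.25) without AD CKO replicate 2. Mcm4 (0.32) lost its call without AD WT replicate 1, and Mcm3 (0.19) without AD WT replicate 2. Taking AD CKO against CKO, Mcm6 (0.27) was no longer called without AD CKO replicate 1. In the interaction, Mcm6 (0.33) lost its call without AD CKO replicate 1, and Mcm4 (0.32) without AD CKO replicate 2. Mcm4 (0.39) and Mcm6 (0.42) lost their calls without AD WT replicate 1, and Mcm4 (0.46) and Mcm6 (0.41) without AD WT replicate 2. Mcm6 (0.41) lost its call without CKO replicate 1, and Mcm4 (0.37) without CKO replicate 2. Mcm4 (0.39) was no longer called without WT replicate 2. Without AD CKO replicate 1, 1 of the 39 passed in AD CKO against CKO.

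Stmn1, which destabilises microtubules and is abundant in neural precursors and neurons, had 34.7 and 35.6 CPM in AD CKO, 65.7 and 61.4 in AD WT, 51.5 and 52.8 in CKO and 54.3 and 48.7 in WT microglia. The AD CKO libraries were the lowest, below both AD WT and CKO. Stmn1 fell by 0.85 ± 0.07 (adjusted p = 5.75e-10) in AD CKO against AD WT and by 0.57 ± 0.08 (adjusted p = 2.42e-06) against CKO, and rose by 0.30 ± 0.07 (adjusted p = 0.00306) in AD WT against WT. The interaction was -0.87 ± 0.11, adjusted p = 7.91e-07. Stmn1 (0.26) lost its call without AD WT replicate 1, and Stmn1 (0.23) without WT replicate 2. Summed over 8 neuroblast markers the level was 24.01 to 24.9 CPM in AD CKO, 54.8 to 56.2 CPM in AD WT, 22.2 to 28.4 CPM in CKO and 52.8 to 52.9 CPM in WT, with 0 higher and 2 lower in AD CKO against AD WT among the 3 that could be tested. Summed over 10 neuron markers it was 13.2 to 16.02 CPM in AD CKO, 15.9 to 16.4 CPM in AD WT, 31.99 to 33.2 CPM in CKO and 13.4 to 14.2 CPM in WT. The part of such cells' RNA in the Stmn1 values was not tested.

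**Figure D4:**
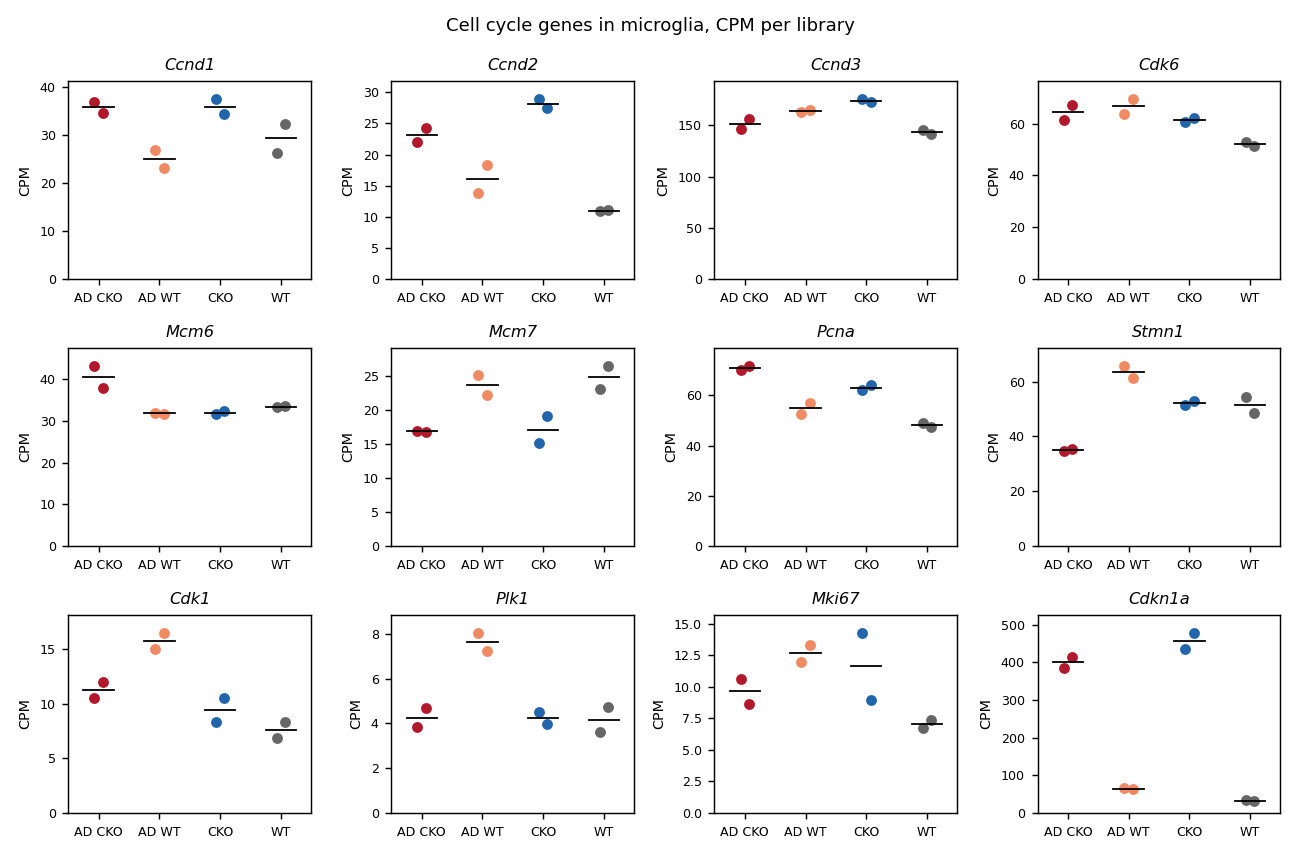
CPM of 12 genes in each microglia library, with 2 points per group and a bar at the mean. Ccnd1, Ccnd2, Pcna and Cdkn1a are higher and Mcm7 lower in the knockout groups (AD CKO and CKO) than in the group of the same background with Rack1 intact, and Plk1 and Cdk1 are highest in AD WT.

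The CDK inhibitor p21 (Cdkn1a), which blocks CDK complexes and binds Pcna, changed more with the knockout in microglia than any of the 39 genes. Cdkn1a (ENSMUSG00000023067, chr17:29090976-29100727, plus strand) had 384 and 416 CPM in AD CKO, 66.3 and 62.8 in AD WT, 437 and 478 in CKO and 34.4 and 30.9 in WT microglia. The knockout groups lay far above the others. Cdkn1a rose by 3.81 ± 0.06 (adjusted p = 1.16e-22) in CKO against WT, by 2.63 ± 0.06 (adjusted p = 6.24e-20) in AD CKO against AD WT and by 0.98 ± 0.06 (adjusted p = 3.78e-11) in AD WT against WT, with an interaction of -1.18 ± 0.08, adjusted p = 5.08e-10. In AD CKO against CKO it fell by 0.19 ± 0.05 (adjusted p = 0.0164). Cdkn1a (-0.11) lost its call without AD CKO replicate 1, and Cdkn1a (-0.13) without CKO replicate 2. Border macrophage markers were higher and microglia markers mostly lower in the same comparisons with the knockout, as given above. The ratio of mean oligodendrocyte marker sums was 2.62 in CKO over WT and 0.61 in AD CKO over AD WT. The part of such cells' RNA in the Cdkn1a values was not tested. Of 12 CDK inhibitors and checkpoint kinases tested, 3 rose and 1 fell in CKO against WT, and 1 rose and 2 fell in AD CKO against AD WT, Cdkn1a counted in, beside 33.6% and 32% of all genes called in those comparisons. The inhibitor p57 (Cdkn1c) fell in both, by 1.29 in CKO against WT and by 0.61 in AD CKO against AD WT. For AD CKO against AD WT, Cdkn1c (-0.40) lost its call without AD CKO replicate 1, and Cdkn1c (-0.56) without AD WT replicate 2.

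The calls among 32 further mitosis genes were mostly in the same directions. For AD WT against WT 12 rose and 1 fell (median 0.43), in AD CKO against AD WT 0 rose and 5 fell (median -0.29), and in CKO against WT 6 rose and 0 fell. The interaction was positive for 0 and negative for 6. The shares of all genes called, in either direction, were 19.3%, 32%, 33.6% and 12.7% in these 4 tests, and they hold for the other lists of the paragraph too. The genes with the smallest p were Racgap1 (0.80 ± 0.13), Cenpa (0.83 ± 0.17) and Espl1 (-0.57 ± 0.09) in AD WT against WT. When AD CKO was set against AD WT, they were Pttg1 (-0.46 ± 0.09), Nusap1 (-0.69 ± 0.21) and Knstrn (-0.72 ± 0.23). Knstrn (-0.38) and Nusap1 (-0.66) lost their calls without AD CKO replicate 2, and Knstrn (-0.76) and Nusap1 (-0.64) without AD WT replicate 1. Knstrn (-0.68) was no longer called without AD WT replicate 2. Knstrn (-1.15) kept its call but moved by more than 1.5 times without AD CKO replicate 1. Of 28 further replication genes, 1 rose and 1 fell in AD WT against WT, and 6 rose and 0 fell in AD CKO against AD WT. Of 18 pocket protein, E2F and DREAM genes, 1 rose and 0 fell in AD WT against WT. That gene was Foxm1, the activator of mitosis genes. Foxm1, a forkhead factor, had 6.43 and 6.48 CPM in AD CKO, 7.83 and 7.56 in AD WT, 8.24 and 7.25 in CKO and 5.51 and 4.99 in WT. It rose by 0.55 ± 0.17 (adjusted p = 0.0207) in AD WT against WT and by 0.56 ± 0.17 (adjusted p = 0.0109) in CKO against WT, with an interaction of -0.82 ± 0.24, adjusted p = 0.0226. When AD WT was set against WT, Foxm1 (0.53) lost its call without AD WT replicate 1, and Foxm1 (0.58) without AD WT replicate 2. Foxm1 (0.48) was no longer called without WT replicate 2. When CKO was set against WT, Foxm1 (0.44) lost its call without CKO replicate 1, and Foxm1 (0.49) without WT replicate 2. In the interaction, Foxm1 kept its call in 9 of 15 alternatives, with log2 fold changes between -0.91 and -0.71. The B-Myb gene Mybl2 was between 1.23 and 1.92 CPM and was called in no microglia comparison. Rb1, the retinoblastoma gene, had 94.4 and 87.9 CPM in AD CKO, 79.9 and 78.8 in AD WT, 84.6 and 76.6 in CKO and 85.2 and 79.2 in WT and was called only in AD CKO against AD WT (0.20 ± 0.06, adjusted p = 0.0165). Rb1 (0.13) lost its call without AD CKO replicate 1, and Rb1 (0.21) without AD WT replicate 1. Rb1 (0.19) was no longer called without AD WT replicate 2.

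In astrocyte libraries the group that stood apart was AD CKO. Of the 18 G2 and mitosis genes 11 rose and 0 fell in AD CKO against AD WT, with a median of 1.05, and 10 rose and 0 fell in AD CKO against CKO, with a median of 0.72. The AD CKO libraries are in both. Summed over the 18 genes the level was 41.2 and 40.04 CPM in AD CKO, 20.1 and 21.3 in AD WT, 22.4 and 21.9 in CKO and 19.3 and 19.2 in WT astrocytes. Over the 39 genes 21 rose and 6 fell in AD CKO against AD WT, where 52.1% of the 20116 genes tested were called (25.1% higher and 27% lower). Taking AD CKO against CKO, 18 rose and 9 fell, where 59.8% were called (31.4% higher and 28.4% lower). AD CKO had the highest mean of the 4 groups for 11 of the 18 G2 and mitosis genes and 7 of the 10 replication genes. The levels were low. Over the 8 libraries the 18 genes had between 0 and 6.55 CPM in astrocytes, that is at most 246 reads per library and gene.

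Mki67, Ki-67, had 2.202 and 2.29 CPM in AD CKO, 0.205 and 0.0309 in AD WT, 0.355 and 0.466 in CKO and 0.591 and 0.557 in WT astrocytes. Top2a, topoisomerase II alpha, had 2.65 and 3.25 CPM in AD CKO, 0.733 and 0.835 in AD WT, 1.39 and 1.33 in CKO and 0.765 and 0.742 in WT. Plk1, polo-like kinase 1, had 2.42 and 2.396 CPM in AD CKO, 0.909 and 0.6495 in AD WT, 0.415 and 0.233 in CKO and 0.626 and 0.649 in WT. For each the AD CKO libraries exceeded all others. Against AD WT, AD CKO was higher by 4.18 ± 0.53 (adjusted p = 7.58e-07) for Mki67, 1.91 ± 0.30 (adjusted p = 1.5e-05) for Top2a and 1.62 ± 0.36 (adjusted p = 0.000616) for Plk1. Against CKO it was higher by 2.45 ± 0.44 (adjusted p = 5.7e-05) for Mki67, 1.11 ± 0.28 (adjusted p = 0.00186) for Top2a and 2.87 ± 0.40 (adjusted p = 2.33e-06) for Plk1. Aurkb, Aurora B, had 1.73 and 2.08 CPM in AD CKO, 0.293 and 0.495 in AD WT, 0.829 and 0.433 in CKO and 0.313 and 0.371 in WT. Kif11, the spindle motor, had 6.52 and 6.55 CPM in AD CKO, 3.37 and 3.0 in AD WT, 1.78 and 2.798 in CKO and 2.16 and 2.81 in WT. Bub1b, BubR1, had 2.51 and 1.704 CPM in AD CKO, 0.8797 and 1.14 in AD WT, 0.741 and 0.5995 in CKO and 0.939 and 0.773 in WT. The AD CKO libraries were again above all others. Against AD WT, AD CKO was higher by 2.27 ± 0.44 (adjusted p = 0.000158) for Aurkb, 1.03 ± 0.21 (adjusted p = 0.000209) for Kif11 and 1.06 ± 0.34 (adjusted p = 0.0132) for Bub1b, and against CKO by 1.57 ± 0.41 (adjusted p = 0.00235) for Aurkb, 1.52 ± 0.22 (adjusted p = 2.36e-06) for Kif11 and 1.64 ± 0.36 (adjusted p = 0.000475) for Bub1b.

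Ccnb1, cyclin B1, had 3.62 and 3.86 CPM in AD CKO, 0.792 and 0.773 in AD WT, 2.52 and 2.46 in CKO and 1.98 and 1.21 in WT astrocytes. Cdc20, the activator of the anaphase-promoting complex, had 2.98 and 2.93 CPM in AD CKO, 1.495 and 1.52 in AD WT, 3.32 and 3.03 in CKO and 2.78 and 2.35 in WT. Ube2c, its ubiquitin-conjugating enzyme, had 1.73 and 0.852 CPM in AD CKO, 0.4398 and 0.6804 in AD WT, 1.04 and 0.999 in CKO and 0.591 and 0.835 in WT. Ccnb1 and Cdc20 were lowest in AD WT, Ccnb1 was highest in AD CKO, and Cdc20 was highest in CKO. AD CKO exceeded AD WT by 2.25 ± 0.28 (adjusted p = 6.61e-07) for Ccnb1, 0.97 ± 0.24 (adjusted p = 0.00148) for Cdc20 and 1.20 ± 0.43 (adjusted p = 0.0246) for Ube2c, and exceeded CKO by 0.59 ± 0.25 (adjusted p = 0.0457) for Ccnb1. Bub1, the checkpoint kinase, had no read in either AD WT library, 0.697 and 0.586 CPM in AD CKO, 0.533 and 0.833 in CKO and 0.313 and 0.557 in WT. A count of 0 allows up to 3 reads per library. Set against that floor, the mean of Bub1 was 7.1-fold higher in AD CKO than in AD WT. By the same floor Bub1 was 4.8-fold lower in AD WT than in WT. Both means rest on few reads, and their error is not in these values. With Bub1 at these values the medians of the 18 genes were 1.05 in AD CKO against AD WT and 0.12 in AD WT against WT.

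Cenpe, the kinetochore motor, had 1.37 and 1.25 CPM in AD CKO, 1.08 and 0.835 in AD WT, 0.207 and 0.2998 in CKO and 0.661 and 0.711 in WT astrocytes. Cenpf, the kinetochore protein, had 1.59 and 1.97 CPM in AD CKO, 0.8797 and 0.928 in AD WT, 0.711 and 1.27 in CKO and 1.29 and 0.897 in WT. Tpx2, the spindle assembly factor, had 4.63 and 3.65 CPM in AD CKO, 2.58 and 2.91 in AD WT, 2.103 and 0.899 in CKO and 2.85 and 2.44 in WT. AD CKO was highest for each. Against CKO, AD CKO was higher by 2.36 ± 0.46 (adjusted p = 0.000122) for Cenpe, 1.44 ± 0.29 (adjusted p = 0.000235) for Tpx2 and 0.86 ± 0.36 (adjusted p = 0.0439) for Cenpf, and against AD WT by 0.98 ± 0.36 (adjusted p = 0.027) for Cenpf, while Cenpe (0.44 ± 0.38, adjusted p = 0.351) and Tpx2 (0.59 ± 0.27, adjusted p = 0.0714) did not pass there. Cdk1, the mitotic kinase, had 2.01 and 1.86 CPM in AD CKO, 2.14 and 2.07 in AD WT, 1.63 and 1.43 in CKO and 0.313 and 0.433 in WT. Ccna2, cyclin A2, had 2.09 and 2.53 CPM in AD CKO, 2.32 and 3.28 in AD WT, 2.16 and 2.16 in CKO and 1.36 and 1.86 in WT. Birc5, survivin, had 0.725 and 0.506 CPM in AD CKO, 0.762 and 0.835 in AD WT, 0.652 and 1.03 in CKO and 0.209 and 0.278 in WT. These ran differently, with WT below the other 3 groups for Cdk1 and Birc5. Cdk1 rose by 2.48 ± 0.35 (adjusted p = 8.22e-06) in AD WT and by 2.02 ± 0.36 (adjusted p = 3.92e-05) in CKO, each against WT. Birc5 rose by 1.69 ± 0.54 (adjusted p = 0.0166) in AD WT and 1.76 ± 0.54 (adjusted p = 0.00679) in CKO, and Ccna2 by 0.79 ± 0.27 (adjusted p = 0.0238) in AD WT. Ccnb2, a B-type cyclin, had 0.334 and 0.506 CPM in AD CKO, 0.264 and 0.124 in AD WT, 0.622 and 0.366 in CKO and 0.591 and 0.928 in WT. It fell by 1.95 ± 0.62 (adjusted p = 0.017) in AD WT against WT. Aurka ran from 0.773 to 1.39 CPM and was called in no astrocyte comparison.

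Single libraries decided part of these calls. In AD CKO against AD WT, Bub1b (0.77) and Ube2c (0.62) lost their calls without AD CKO replicate 1, and Cenpf (0.82) without AD CKO replicate 2. Bub1b (0.89), Cenpf (0.95) and Ube2c (0.92) lost their calls without AD WT replicate 1, and Cenpf (1.03) without AD WT replicate 2. Cenpf (1.01) and Ube2c (1.24) lost their calls with DESeq2, and Cenpf (0.83) with the transcript length offset. For AD CKO against CKO, Cenpf (1.01) lost its call without AD CKO replicate 1, and Cenpf (0.70) without AD CKO replicate 2. Cenpf (0.50) lost its call without CKO replicate 1, and Cenpf (0.86) with DESeq2. Cenpf (0.67) was no longer called with the transcript length offset. Ccnb1 kept its call in 9 of 16 alternatives, with log2 fold changes between 0.43 and 0.64. Cenpf (1.32) kept its call but moved by more than 1.5 times without CKO replicate 2. Tpx2 (2.20) kept its call but moved by more than 1.5 times without CKO replicate 1. Mki67, Top2a, Plk1, Aurkb and Kif11 were called in every alternative in both comparisons. Microglia markers in these astrocyte libraries summed to 1448 to 1475 CPM in AD CKO, 1352 to 1374 CPM in AD WT, 2232 to 2289.7 CPM in CKO and 595 to 602 CPM in WT, and 9 of 14 were higher and 2 lower in AD CKO against AD WT. Markers of border macrophages and monocytes summed to 44.96 to 49.7 CPM in AD CKO, 24.2 to 25.3 CPM in AD WT, 56.3 to 61.4 CPM in CKO and 23.7 to 24.1 CPM in WT, and 4 of 9 were higher and 0 lower. The ratio of mean sums, AD CKO over AD WT, was 1.96 for the G2 and mitosis genes, 2.71 for oligodendrocyte, 1.91 for border macrophage and monocyte, 1.16 for endothelial, 1.07 for microglia and 0.638 for astrocyte markers. Endothelial markers summed to 2562 to 2569.7 CPM in AD CKO, 2207 to 2209 CPM in AD WT, 4729.9 to 4781 CPM in CKO and 1838 to 1849 CPM in WT, highest in CKO. Markers of oligodendrocyte precursors, a dividing cell type, summed to 516 to 521 CPM in AD CKO, 519 to 546 CPM in AD WT, 483 to 499.6 CPM in CKO and 721 to 746 CPM in WT, with 5 of 10 higher and 3 lower in AD CKO against AD WT. Oligodendrocyte markers summed to 19088 to 19232 CPM in AD CKO, 6961 to 7163 CPM in AD WT, 13402 to 13746 CPM in CKO and 14595 to 14756 CPM in WT, and 10 of 10 were higher in AD CKO against AD WT. Astrocyte markers summed to 15204 to 15359.9 CPM in AD CKO, 23549 to 24324 CPM in AD WT, 10874 to 11112 CPM in CKO and 24715 to 25128 CPM in WT, with 10 of 12 lower in AD CKO against AD WT. The part of oligodendrocyte, macrophage and other RNA, and of the lower astrocyte marker sums, in these results was not tested.

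**Figure D5:**
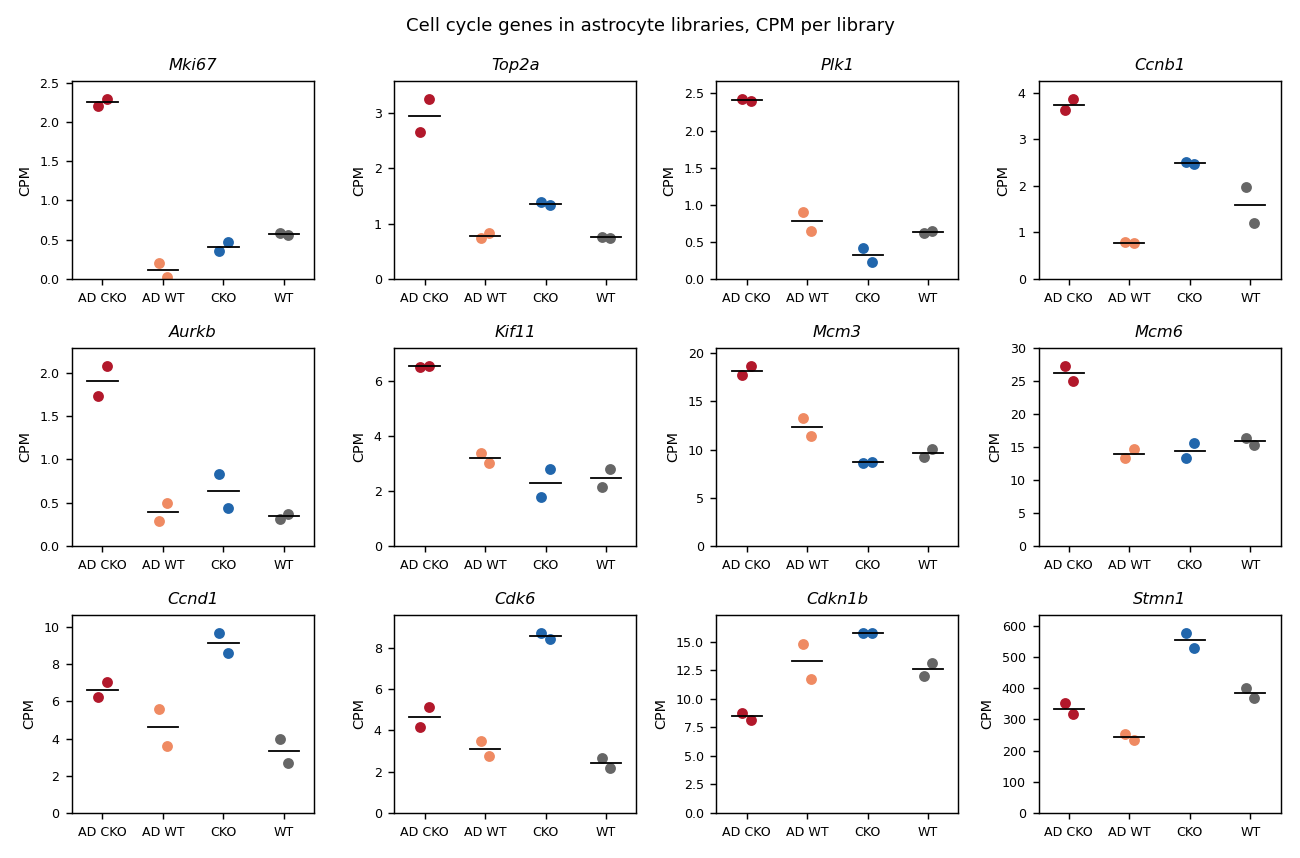
CPM of 12 genes in each astrocyte library, with 2 points per group and a bar at the mean. For Mki67, Top2a, Plk1, Aurkb, Kif11, Mcm3 and Mcm6 both AD CKO libraries lie above the other 6, whereas Ccnd1, Cdk6 and Stmn1 are highest in CKO.

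Most replication genes also rose in AD CKO astrocytes. When AD CKO was set against AD WT, 7 of 10 rose and 2 fell, and in AD CKO against CKO 7 rose and 2 fell, beside 52.1% and 59.8% of all genes called in either direction. Mcm3, a helicase subunit, had 17.7 and 18.7 CPM in AD CKO, 13.3 and 11.4 in AD WT, 8.59 and 8.73 in CKO and 9.22 and 10.1 in WT. Mcm4, another, had 43.6 and 45.1 CPM in AD CKO, 34.95 and 35.3 in AD WT, 26.2 and 28.3 in CKO and 36.5 and 38.4 in WT. Mcm6, another, had 27.3 and 25.1 CPM in AD CKO, 13.3 and 14.7 in AD WT, 13.4 and 15.6 in CKO and 16.4 and 15.4 in WT. AD CKO was highest for all 3. Against AD WT, AD CKO was higher by 0.90 ± 0.10 (adjusted p = 8.64e-08) for Mcm6, 0.56 ± 0.11 (adjusted p = 0.000166) for Mcm3 and 0.34 ± 0.07 (adjusted p = 0.000357) for Mcm4, and against CKO by 1.07 ± 0.11 (adjusted p = 3.27e-08) for Mcm3, 0.86 ± 0.10 (adjusted p = 1.22e-07) for Mcm6 and 0.71 ± 0.07 (adjusted p = 2.05e-08) for Mcm4. Mcm2, a helicase subunit, had 8.33 and 9.61 CPM in AD CKO, 7.27 and 6.62 in AD WT, 7.17 and 5.76 in CKO and 5.91 and 6.96 in WT. Mcm5, another, had 4.99 and 4.23 CPM in AD CKO, 2.93 and 3.25 in AD WT, 3.14 and 3.63 in CKO and 4.11 and 2.94 in WT. Mcm7, another, had 18.5 and 16.7 CPM in AD CKO, 11.2 and 12.3 in AD WT, 11.7 and 13.2 in CKO and 17.7 and 17.1 in WT. Mcm2 and Mcm5 were highest in AD CKO, and Mcm7 was as high in WT as in AD CKO. Mcm7 rose by 0.59 ± 0.10 (adjusted p = 6.05e-05) against AD WT and 0.50 ± 0.10 (adjusted p = 0.000243) against CKO, and was lower than WT in both AD WT (-0.57 ± 0.11, adjusted p = 0.000218) and CKO (-0.49 ± 0.11, adjusted p = 0.000359). Mcm2 rose by 0.37 ± 0.15 (adjusted p = 0.0393) against AD WT and 0.47 ± 0.15 (adjusted p = 0.00916) against CKO, and Mcm5 by 0.58 ± 0.20 (adjusted p = 0.0213) against AD WT.

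Rrm1, the large subunit of ribonucleotide reductase, had 42.6 and 45.9 CPM in AD CKO, 35.86 and 39.4 in AD WT, 27.99 and 27.4 in CKO and 45.5 and 47.0 in WT astrocytes. Rrm2, its small subunit, had 9.62 and 10.7 CPM in AD CKO, 8.77 and 9.495 in AD WT, 7.32 and 5.73 in CKO and 8.04 and 7.27 in WT. Rrm1 was lowest in CKO, and the CKO and WT libraries of Rrm2 overlapped. Rrm1 fell by 0.74 ± 0.07 (adjusted p = 9.13e-09) in CKO against WT and rose by 0.68 ± 0.07 (adjusted p = 4.92e-08) in AD CKO against CKO. Rrm2 rose by 0.63 ± 0.14 (adjusted p = 0.000472) in AD CKO against CKO. Pcna, the sliding clamp, had 61.4 and 54.7 CPM in AD CKO, 71.3 and 71.97 in AD WT, 93.02 and 91.5 in CKO and 69.4 and 67.3 in WT. Tyms, thymidylate synthase, had 7.97 and 8.71 CPM in AD CKO, 10.4 and 10.2 in AD WT, 11.6 and 10.8 in CKO and 8.07 and 8.29 in WT. Both were highest in CKO, Pcna was lowest in AD CKO, and the AD CKO and WT libraries of Tyms overlapped. Pcna fell by 0.67 ± 0.06 (adjusted p = 3.42e-09) in AD CKO against CKO and by 0.30 ± 0.06 (adjusted p = 0.00026) against AD WT, and rose by 0.43 ± 0.06 (adjusted p = 1.91e-06) in CKO against WT. Tyms rose by 0.45 ± 0.12 (adjusted p = 0.00273) in CKO against WT and fell by 0.42 ± 0.12 (adjusted p = 0.00423) in AD CKO against CKO. For the replication genes in AD CKO against AD WT, Mcm5 (0.47) lost its call without AD CKO replicate 1, and Mcm2 (0.27) and Rrm1 (0.19) without AD CKO replicate 2. Mcm2 (0.45), Mcm5 (0.51) and Rrm1 (0.18) lost their calls without AD WT replicate 1, and Mcm2 (0.32) without AD WT replicate 2. Mcm2 (0.40) and Mcm5 (0.61) lost their calls with DESeq2, and Mcm2 (0.24) and Rrm1 (0.08) with the transcript length offset. Tyms kept its call in 6 of 16 alternatives, with log2 fold changes between -0.41 and -0.22. Pcna (-0.16) kept its call but moved by more than 1.5 times with the transcript length offset. Taking AD CKO against CKO, Tyms (-0.35) lost its call without AD CKO replicate 1, and Mcm2 (0.37) without AD CKO replicate 2. Mcm2 (0.33) lost its call without CKO replicate 2, and Mcm2 (0.20) with the transcript length offset. Mcm7 (0.33), Rrm1 (0.42) and Tyms (-0.68) kept their calls but moved by more than 1.5 times with the transcript length offset. Taking AD WT against WT, Mcm3 (0.23) lost its call without AD WT replicate 1, and Mcm3 (0.28) without WT replicate 1. Mcm3 (0.34) lost its call with DESeq2, and Rrm1 (-0.16) with the transcript length offset. Tyms kept its call in 7 of 16 alternatives, with log2 fold changes between 0.30 and 0.40. Taking CKO against WT, Mcm7 (-0.32) and Pcna (0.23) kept their calls but moved by more than 1.5 times with the transcript length offset.

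Among G1 regulators in astrocytes, CKO had the highest mean for 6 of 10 genes. In CKO against WT 6 of 10 rose and 1 fell, and in AD CKO against CKO 1 rose and 6 fell. Of all genes, 59.8% were called in AD CKO against CKO (31.4% higher and 28.4% lower) and 64% in CKO against WT. The shares of the 10 that were called were near those of all genes. Over the 39 genes 13 rose and 6 fell in CKO against WT, where 64% of all genes were called (31.6% higher and 32.4% lower). Ccnd1, cyclin D1, had 6.24 and 7.03 CPM in AD CKO, 5.57 and 3.62 in AD WT, 9.69 and 8.63 in CKO and 3.97 and 2.69 in WT. Cdk6, its kinase partner, had 4.15 and 5.14 CPM in AD CKO, 3.46 and 2.75 in AD WT, 8.71 and 8.43 in CKO and 2.64 and 2.16 in WT. Both were highest in CKO, with no overlap between CKO and any other group. For CKO against WT, Cdk6 rose by 1.84 ± 0.19 (adjusted p = 1.86e-08) and Ccnd1 by 1.47 ± 0.20 (adjusted p = 3.85e-06). In AD CKO against CKO, Cdk6 fell by 0.88 ± 0.17 (adjusted p = 0.000152). For AD CKO against AD WT, Ccnd1 (0.53 ± 0.20, adjusted p = 0.0315) and Cdk6 (0.58 ± 0.19, adjusted p = 0.0134) rose. Microglia markers, whose sums are given above, were also highest in CKO astrocyte libraries, with 13 of 14 higher in CKO against WT, and both genes were far higher in WT microglia than in WT astrocytes. Border macrophage and monocyte markers were higher for 7 of 9. The part of microglial and macrophage RNA in these values was not tested. Ccnd3, cyclin D3, had 120.3 and 115 CPM in AD CKO, 144 and 139 in AD WT, 142 and 142 in CKO and 109 and 109 in WT. Cdk4, a G1 kinase, had 96.5 and 97.5 CPM in AD CKO, 102 and 97.3 in AD WT, 122 and 117 in CKO and 95.4 and 94.5 in WT. Cdkn1b, the inhibitor p27, had 8.72 and 8.15 CPM in AD CKO, 14.8 and 11.7 in AD WT, 15.7 and 15.8 in CKO and 12 and 13.1 in WT. Ccnd3 was higher in AD WT and CKO than in AD CKO and WT, Cdk4 was highest in CKO, and Cdkn1b was lowest in AD CKO. Ependymal and choroid markers summed to 5480 to 5883 CPM in AD CKO and 8384 to 9517 CPM in AD WT. They summed to 9249 to 10583.5 CPM in CKO and 4313 to 4638 CPM in WT. The part of such cells' RNA in these values was not tested.

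In CKO against WT astrocytes Ccnd3 rose by 0.38 ± 0.05 (adjusted p = 8.33e-07), Cdk4 by 0.33 ± 0.05 (adjusted p = 8.94e-06) and Cdkn1b by 0.32 ± 0.12 (adjusted p = 0.0196). When AD CKO was set against CKO, Cdkn1b differed by -0.90 ± 0.12 (adjusted p = 1.05e-06), Cdk4 by -0.30 ± 0.05 (adjusted p = 3.39e-05) and Ccnd3 by -0.27 ± 0.05 (adjusted p = 8.53e-05), all falls. Taking AD CKO against AD WT, Cdkn1b (-0.65 ± 0.12, adjusted p = 9.53e-05) and Ccnd3 (-0.27 ± 0.05, adjusted p = 0.000125) fell. Ccnd2, cyclin D2, had 103 and 98.2 CPM in AD CKO, 113 and 103 in AD WT, 90.2 and 87.7 in CKO and 88.1 and 88.3 in WT. Cdk2, the kinase of S phase entry, had 16.2 and 15.4 CPM in AD CKO, 19.6 and 19.1 in AD WT, 17.2 and 18.6 in CKO and 15.9 and 14.3 in WT. E2f1, an E2F factor, had 6.83 and 6.42 CPM in AD CKO, 11.8 and 8.63 in AD WT, 6.49 and 4.26 in CKO and 7.83 and 7.85 in WT. Ccnd2 and E2f1 were highest in AD WT, and Cdk2 was lowest in WT and AD CKO. Ccnd2 rose by 0.30 ± 0.06 (adjusted p = 0.000291) in AD WT against WT and by 0.18 ± 0.06 (adjusted p = 0.0105) in AD CKO against CKO, where a term for transcript length turned it to -0.10. Cdk2 rose by 0.36 ± 0.10 (adjusted p = 0.00585) in AD WT and 0.24 ± 0.10 (adjusted p = 0.0356) in CKO, each against WT, and fell by 0.29 ± 0.09 (adjusted p = 0.0131) in AD CKO against AD WT. E2f1 fell in CKO against WT (-0.54 ± 0.18, adjusted p = 0.0168) and in AD CKO against AD WT (-0.63 ± 0.17, adjusted p = 0.00555). Ccne1, cyclin E1, had 1.31 and 1.44 CPM in AD CKO, 1.94 and 1.76 in AD WT, 2.28 and 2.53 in CKO and 2.12 and 1.95 in WT. It fell by 0.80 ± 0.26 (adjusted p = 0.0111) in AD CKO against CKO. Ccne2 ran from 3.46 to 4.33 CPM and was called in no astrocyte comparison.

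Left-out libraries and other settings ended some of these G1 calls. When CKO was set against WT, Cdkn1b (0.33) lost its call without CKO replicate 1, and Cdk2 (0.18), Cdkn1b (0.32) and E2f1 (-0.28) without CKO replicate 2. Cdkn1b (0.26) and E2f1 (-0.54) lost their calls without WT replicate 1, and Cdk2 (0.16) and E2f1 (-0.54) without WT replicate 2. Cdk2 (0.25) lost its call with DESeq2, and Cdk2 (0.24) with no filter on low counts. Ccnd3 (0.62), Cdk2 (0.46) and Cdkn1b (0.50) kept their calls but moved by more than 1.5 times with the transcript length offset. E2f1 (-0.88) kept its call but moved by more than 1.5 times without CKO replicate 1. In AD CKO against CKO, Ccnd1 (-0.37), Ccnd2 (0.15) and Ccne1 (-0.73) lost their calls without AD CKO replicate 1, and Ccnd1 (-0.55) without AD CKO replicate 2. Ccnd1 (-0.37) lost its call without CKO replicate 1, and Ccnd1 (-0.54), Ccnd2 (0.16) and Ccne1 (-0.73) without CKO replicate 2. Ccnd1 (-0.46) was no longer called with DESeq2. Ccnd3 (-0.54) kept its call but moved by more than 1.5 times with the transcript length offset. For AD CKO against AD WT, Ccnd1 (0.45), Cdk2 (-0.24), Cdk6 (0.43) and E2f1 (-0.57) lost their calls without AD CKO replicate 2, and Cdk2 (-0.26) and E2f1 (-0.37) without AD WT replicate 1. Ccnd1 (0.27) and Cdk6 (0.44) lost their calls without AD WT replicate 2, and Cdk2 (-0.26) with DESeq2. Cdk6 (0.43) was no longer called with the transcript length offset. Ccnd1 (0.88) kept its call but moved by more than 1.5 times without AD WT replicate 1. Ccnd3 (-0.42) kept its call but moved by more than 1.5 times with the transcript length offset. In AD WT against WT, Cdk2 (0.27) was no longer called without WT replicate 2.

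Against WT, the calls among G2 and mitosis genes of astrocytes went in both directions. For AD WT against WT 3 rose and 5 fell (median 0.12), and over the 39 genes 8 rose and 8 fell, where 38% of all genes were called (20% higher and 18% lower). Taking CKO against WT, 4 rose and 2 fell (median 0.37), where 64% of all genes were called, a larger share than of the 18. Those that fell in AD WT were Bub1, Mki67 (-2.22 ± 0.60, adjusted p = 0.00596), Ccnb2, Ccnb1 (-1.01 ± 0.31, adjusted p = 0.0125) and Cdc20 (-0.77 ± 0.24, adjusted p = 0.016). In CKO against WT, Top2a (0.85 ± 0.33, adjusted p = 0.0272) and Ccnb1 (0.65 ± 0.27, adjusted p = 0.0394) rose beside Cdk1 and Birc5, and Cenpe (-1.43 ± 0.49, adjusted p = 0.014) and Tpx2 (-0.80 ± 0.30, adjusted p = 0.0266) fell. When AD WT was set against WT, 3 of the 18 passed without AD WT replicate 2, 4 without WT replicate 1 and 5 with the filter of at least 1 CPM in 2 libraries, which leaves out the lowest genes. For CKO against WT 3 passed without CKO replicate 2 and also without WT replicate 2. Taking AD WT against WT, Ccnb1 (-1.04) and Cdc20 (-0.76) lost their calls without AD WT replicate 1, and Birc5 (1.61), Ccna2 (0.51), Ccnb2 (-1.53), Cdc20 (-0.79) and Mki67 (-1.48) without AD WT replicate 2. Birc5 (1.5), Ccna2 (0.58), Ccnb1 (-0.63) and Cdc20 (-0.65) lost their calls without WT replicate 1, and Birc5 (1.91) and Ccnb2 (-1.59) without WT replicate 2. Ccna2 (0.78) was no longer called with DESeq2. Mki67 (-4.06) kept its call but moved by more than 1.5 times without AD WT replicate 1. When CKO was set against WT, Cenpe (-1.19) lost its call without CKO replicate 1, and Birc5 (1.40) and Tpx2 (-0.33) without CKO replicate 2. Tpx2 (-0.69) lost its call without WT replicate 1, and Cenpe (-1.38) without WT replicate 2. Tpx2 (-0.61) was no longer called with the transcript length offset. Top2a kept its call in 8 of 16 alternatives, with log2 fold changes between 0.82 and 1.09. Ccnb1 kept its call in 9 of 16 alternatives, with log2 fold changes between 0.32 and 1.04. Tpx2 (-1.55) kept its call but moved by more than 1.5 times without CKO replicate 1.

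Stmn1, the microtubule regulator, had 351 and 318 CPM in AD CKO, 254 and 235 in AD WT, 578 and 529.6 in CKO and 401 and 367 in WT astrocytes. CKO was highest and AD WT lowest. It rose by 0.53 ± 0.06 (adjusted p = 2.41e-06) in CKO against WT and by 0.45 ± 0.06 (adjusted p = 2.33e-05) in AD CKO against AD WT, and differed by -0.65 ± 0.06 (adjusted p = 1.48e-06) in AD WT against WT and by -0.73 ± 0.06 (adjusted p = 9.39e-08) in AD CKO against CKO. With the transcript length offset it kept its calls but moved by more than 1.5 times, to 0.19 in CKO against WT and to -0.39 in AD CKO against CKO. Neuroblast markers summed to 283 to 287 CPM in AD CKO, 269 to 269.7 CPM in AD WT, 273 to 283 CPM in CKO and 243 to 245 CPM in WT and neuron markers to 79.1 to 79.98 CPM in AD CKO, 59.1 to 63.2 CPM in AD WT, 102 CPM in CKO and 54.2 to 56.1 CPM in WT. The part of such cells in the Stmn1 values was not tested.

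The effect of the knockout differed between backgrounds in astrocytes as well. Of the 18 G2 and mitosis genes the interaction was called positive for 9 and negative for 2, with a median of 1.28. Over the 39 genes it was positive for 14 and negative for 10, where 57.8% of all genes were called (29.5% positive and 28.3% negative), so the members' share called, at 24 of 39, was near that of all genes. Of the genes with reads in every group the largest values were those of Mki67 (4.67 ± 0.74, adjusted p = 1.23e-05) and Plk1 (2.58 ± 0.58, adjusted p = 0.0006). The negative values were those of Cdk1 (-2.14 ± 0.46, adjusted p = 0.000369) and Birc5 (-2.14 ± 0.72, adjusted p = 0.014). Of the replication genes Mcm7 (1.07 ± 0.15, adjusted p = 1.85e-06), Mcm6 (1.04 ± 0.14, adjusted p = 1.77e-06), Rrm1 (0.98 ± 0.10, adjusted p = 3.47e-08), Mcm4 (0.80 ± 0.10, adjusted p = 6.05e-07) and Mcm3 (0.72 ± 0.16, adjusted p = 0.000632) were positive, and Tyms (-0.76 ± 0.17, adjusted p = 0.000643) and Pcna (-0.74 ± 0.09, adjusted p = 1.92e-07) negative. The 6 G1 regulators called were all negative, from -1.26 to -0.38. In the interaction, Birc5 (-1.89) lost its call without AD CKO replicate 2, and Ccnd1 (-0.58) without AD WT replicate 1. Cenpe (1.64) lost its call without CKO replicate 1, and Birc5 (-1.77) without CKO replicate 2. Ccnd1 (-0.66) lost its call without WT replicate 2, and Cenpe (1.49) with the transcript length offset. Top2a kept its call in 1 of 15 alternatives, with log2 fold changes between 0.66 and 1.22. Bub1b kept its call in 9 of 15 alternatives, with log2 fold changes between 1.12 and 1.67. Ccnd3 (-1.04), Cdk2 (-0.86), Pcna (-0.40) and Rrm1 (0.58) kept their calls but moved by more than 1.5 times with the transcript length offset. Tpx2 (2.15) kept its call but moved by more than 1.5 times without CKO replicate 1. Tpx2 (0.93) kept its call but moved by more than 1.5 times without CKO replicate 2. Stmn1 (-0.08 ± 0.09, adjusted p = 0.472) was not called, and a term for transcript length turned it to 0.42, past the threshold.

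Among the wider lists in astrocytes, 13 of 32 further mitosis genes rose and 3 fell in AD CKO against AD WT. The smallest p were those of Anln (1.07 ± 0.06), Racgap1 (1.73 ± 0.20) and Nek2. Anln differed by -1.28 in AD WT against WT, 0.41 in AD CKO against CKO and -0.62 in CKO against WT. The ratios of oligodendrocyte marker sums there were 0.481, 1.41 and 0.925, with 2.71 in AD CKO over AD WT. The part of oligodendrocyte RNA in the Anln values was not tested. Nek2, a centrosomal kinase, had no read in AD WT. Set against a floor of 3 reads per library there, its mean was 21.9-fold higher in AD CKO. In AD WT against WT 1 rose and 3 fell, and in CKO against WT 12 rose and 5 fell. Of all genes, 52.1% were called in AD CKO against AD WT, 38% in AD WT against WT and 64% in CKO against WT, against which these and the following counts of wider lists are to be read. Of 27 further replication genes tested 6 rose and 4 fell in AD CKO against AD WT, and 15 rose and 1 fell in CKO against WT. Cdkn1a had 45.2 and 47.2 CPM in AD CKO, 49.1 and 47.5 in AD WT, 147 and 126 in CKO and 27.9 and 27.03 in WT. It rose by 2.31 ± 0.07 (adjusted p = 3.34e-17) in CKO and by 0.81 ± 0.07 (adjusted p = 2.1e-08) in AD WT, each against WT, and in AD CKO against AD WT differed by -0.06 ± 0.07, adjusted p = 0.475, which did not pass. In all, 8 of 12 inhibitors and checkpoint kinases rose and 2 fell in CKO against WT, Cdkn1a counted in. Rb1 had 74.7 and 79.2 CPM in AD CKO, 74.4 and 79.6 in AD WT, 35.93 and 42.4 in CKO and 100.7 and 106 in WT. It was lowest in CKO, at -1.41 ± 0.07 (adjusted p = 2.36e-13) against WT, and its relative Rbl2 (p130, a subunit of DREAM) differed by -1.27 ± 0.06. The ratio of mean sums, CKO over WT, was 5.38 for lymphocyte, 3.78 for microglia, 3.48 for neutrophil and 2.58 for endothelial markers. It was 2.47 for border macrophage, 2.35 for mural and 2.22 for ependymal and choroid markers. It was 0.925 for oligodendrocyte, 0.67 for oligodendrocyte precursor and 0.441 for astrocyte markers. For AD WT over WT the ratio was 2.28 for microglia, 2.0 for ependymal and choroid, and 0.96 for astrocyte markers. The part of such cells' RNA in the Cdkn1a, Rb1 and Rbl2 values was not tested. Of 18 pocket protein, E2F and DREAM genes 4 rose and 8 fell in CKO against WT, a share called near the 64% of all genes. Foxm1 had 1.45 and 1.38 CPM in AD CKO, 1.03 and 1.42 in AD WT, 1.69 and 1.799 in CKO and 0.696 and 0.588 in WT, and rose by 1.44 ± 0.35 (adjusted p = 0.00114) in CKO against WT and by 0.93 ± 0.36 (adjusted p = 0.0467) in AD WT against WT. For AD WT against WT, Foxm1 kept its call in 4 of 16 alternatives, with log2 fold changes between 0.67 and 1.14. Its interaction was -1.23 ± 0.48, adjusted p = 0.0332. There Foxm1 kept its call in 7 of 15 alternatives, with log2 fold changes between -1.54 and -0.96. Mybl2 had 3.26 and 2.98 CPM in AD CKO, 1.701 and 1.21 in AD WT, 2.58 and 4.23 in CKO and 2.19 and 1.61 in WT, and rose by 1.10 ± 0.28 (adjusted p = 0.00218) in AD CKO against AD WT and 0.84 ± 0.27 (adjusted p = 0.0107) in CKO against WT. Taking CKO against WT, Mybl2 (0.44) lost its call without CKO replicate 2, and Mybl2 (0.62) without WT replicate 2.

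Some of the 39 share sequence with other genes. Whether counting used strand is not stated in the sources used here, and exons overlap a gene on the opposite strand over 23.4% of the exon length of Ccnd1, 22.8% of Ube2c, 19.7% of Cdk4, 17.4% of Ccne2 and 12.5% of Ccna2, so reads of the partners may be counted in. Pcna, Ccnb1, Ccnb2, Ccnd3 and Tyms have named pseudogene copies in the tables, with at most 107 reads in a library for those of Pcna, the highest, and their counts are uncertain by what was split with those copies.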

How the data were processed

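RNA-seq libraries of mouse microglia and astrocytes, 16 in all, were deposited as 1 table of expected counts per gene and cell type, which need not be whole. Per the labels, libraries were made from total RNA with SMART-Seq v4, and the submitters' processing notes name fastp, HISAT2, StringTie and mm10, without roles. How reads were assigned, the gene annotation and the use of strand are not given in the sources used here. Deposited counts were rounded, filtered with filterByExpr and scaled by TMM, and all 4 groups of a cell type (all 8 groups for microglia against astrocytes) were fitted together with edgeR 4.0.16 (quasi-likelihood, robust, R 4.3.3), with Benjamini-Hochberg adjustment over all genes tested and a threshold of 0.05. The script was tested on simulated counts. Common biological coefficients of variation were 0.0678 in microglia and 0.0579 in astrocytes. Alternatives were RLE factors, DESeq2 1.42.0, limma-voom 3.58.1, other filters, the compared groups alone, a replicate block, an offset for merged exon length and each library left out. Within a cell type, differences between replicates 1 and 2 were hardly correlated between groups (-0.03 to 0.05). Whether microglia and astrocyte libraries of the same number pair was not examined. Members, lists and tests were chosen with earlier results of these data known. All members are described, with values per library where called in that cell type. Further genes named are Cdkn1a, Foxm1, Mybl2, Rb1 and up to 3 per list and comparison with the smallest p among those called. Exon lengths and gene positions are from GENCODE M21 on mm10, and promoters from RefSeq on GRCm38.p6. Each standard error is the absolute log2 fold change over the square root of the test's F, so it holds the fitted spread between libraries. The floors used for counts of 0 cover counting error only, in the group at 0.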

Additional observations from a re-analysis of the deposited data

Results flagged for a closer look

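The effect of the knockout differed between the AD model and the animals without it, by the interaction term of edgeR's test with Benjamini-Hochberg adjustment, for the genes below. Each value is the log2 fold change of AD CKO against AD WT less that of CKO against WT. In microglia it was negative for Cdkn1a (-1.18), Mki67 (-1.12), Cenpf (-1.07), Tpx2 (-1.01), Ccnb2 (-0.97), Ccna2 (-0.90), Plk1 (-0.87), Stmn1 (-0.87), Ccnd2 (-0.83), Foxm1 (-0.82), Cdk1 (-0.79), Top2a (-0.62) and Ccnd3 (-0.39). In microglia it was positive for Mcm4 (0.42) and Mcm6 (0.41). In astrocytes it was positive for Bub1 (6.79), Mki67 (4.67), Plk1 (2.58), Cenpe (1.88), Ccnb1 (1.60), Rb1 (1.41), Bub1b (1.40), Tpx2 (1.39), Kif11 (1.17), Mcm7 (1.07), Top2a (1.06), Mcm6 (1.04), Rrm1 (0.98), Mcm4 (0.80) and Mcm3 (0.72). The value of Bub1 rests on AD WT libraries with no read and depends on the prior count. In astrocytes it was negative for Cdkn1a (-2.38), Cdk1 (-2.14), Birc5 (-2.14), Cdk6 (-1.26), Foxm1 (-1.23), Cdkn1b (-0.98), Ccnd1 (-0.94), Tyms (-0.76), Pcna (-0.74), Ccnd3 (-0.64), Cdk2 (-0.53) and Cdk4 (-0.38). Foxm1 in astrocytes kept its call in 7 of 15 alternatives, Top2a there in 1 and Bub1b there in 9. In microglia Plk1 kept its call in 7 of 15 alternatives and Foxm1 in 9. Some other calls in this list also depended on single libraries, as described above.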

How the results depend on the processing

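With 2 libraries a group, leaving out 1 library moved counts most. The ranges of members called leave out the replicate block, whose counts are given below. In microglia the members called ranged over 8 to 21 in AD CKO against AD WT, 1 to 4 in AD CKO against CKO, 11 to 20 in AD WT against WT, 6 to 11 in CKO against WT and 7 to 13 in the interaction. The G2 and mitosis genes among them ranged over 2 to 11 in AD CKO against AD WT, 0 to 1 in AD CKO against CKO, 7 to 14 in AD WT against WT, 0 to 4 in CKO against WT and 4 to 8 in the interaction. In astrocytes the G2 and mitosis genes called ranged over 3 to 8 in AD WT against WT and 3 to 6 in CKO against WT. With the filter of at least 1 CPM in 2 libraries, 5 passed in AD WT against WT astrocytes, since fewer genes are tested.

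The transcript length offset turned the sign of Ccnd2 (-0.10) and Gins4 (0.021) in AD CKO against CKO astrocytes, of Stmn1 (0.42) and Gins4 (0.015) in the astrocyte interaction and of Pcna (0.24) in WT microglia against WT astrocytes. The cause was not tested. With the replicate block the members called were 20, 3, 21, 11 and 16 in the microglia comparisons in the order above, 29, 27, 18, 19 and 23 in the astrocyte comparisons, and 34 between WT cell types. At 2 libraries a group, a difference that did not pass may lie below what the spread allows to be seen.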
